A study of Mus musculus with 6 samples.

Results

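The genes described here build and run the primary cilium: the particles and motors of intraflagellar transport, the BBSome with its chaperonins, the ARL GTPases, the transition zone at the base of the cilium, and 3 hedgehog regulators that act inside it. They were chosen by name, as every non-control probe whose gene name starts with Ift or Bbs and a number, is Tctn1, Tctn2 or Tctn3, or stands in a list of 23 further cilium genes. The rule found 63 of 55681 probes, for 46 genes, and 45 of these genes were among the 13197 genes tested. The gene left out was Wdr19, a core subunit of the IFT-A particle, whose single probe stayed below the background limit on every array. All 45 genes tested were well above background on all 6 arrays.

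The primary cilium is a single antenna that most cells raise from a centriole when they are not dividing. Kinesin-2 carries IFT-B particles with their cargo towards the tip, dynein-2 carries IFT-A particles back to the base, and the transition zone with the BBSome controls which membrane proteins enter and leave. Vertebrate hedgehog signalling passes through this organelle, and in mice the loss of intraflagellar transport disturbs the patterning and number of digits.

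RNA came from the mesenchyme of mouse forelimb autopods, the future hands, at stage E11.5. The embryos were of the C57BL/6 strain and had an EGFP reporter in the Sox9 locus, whose gene drives cartilage formation. Fluorescence-activated sorting separated Sox9-EGFP positive cells from Sox9-EGFP negative cells, so all 6 samples carried the reporter allele. Each group had 3 samples, each a pool of about 10 autopods measured on an Agilent array with a single dye, and the labels do not say whether samples came from separate litters or sorts, so the p-values measure the spread between these samples.

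Sox9 checked the labels: its level was 3.37 ± 0.33 in positive cells and −1.0 ± 0.13 in negative cells (SD, n = 3 each), in log2 units relative to the 75th percentile of the array's signal, the scale of all levels below. That percentile lay at 126 signal units for positive replicate 1 and between 385 and 478 for the others. Of 10 condensation and cartilage genes tested, 8 were higher in positive cells, against 10.6% of all genes tested. These 8 include Sox9 itself and Sox6, which was above background on no negative array. The filter kept Sox6 through the positive arrays, so its direction is not independent of the filter. Of 12 limb mesenchyme markers, 2 were higher and 7 lower, against 10.6% and 24.4% of all genes tested. All 12 were above background on every array. Of 9 markers of muscle precursors on the array, 6 were tested and 5 were lower, against 24.4% of all genes tested. The summed level of the 6 was 0.369 to 0.450 in positive cells and 1.03 to 2.16 in negative cells, in multiples of the 75th percentile. Of these 6, 1 was above background on all arrays. Pax3, Myog and Myod1 were above background on no positive array. The filter kept these genes through the negative arrays, where they were high, so their direction is not independent of it. The summed level of 3 neural crest and glia markers was 1.69 to 1.98 in positive cells and 13.9 to 16.2 in negative cells. For the 7 of 13 blood genes tested it was 2.44 to 7.66 in positive cells and 2.46 to 59.7 in negative cells, where negative replicate 2 held the highest value. For the 4 of 10 endothelial genes tested it was 12.1 to 16.9 in positive cells and 17.8 to 21.2 in negative cells. Of these 4, Egfl7, the brightest, was lower at −0.71 ± 0.13, where 24.4% of all genes tested were called lower. The others were not called: Kdr differed by 0.36 ± 0.52, Pecam1 by −0.11 ± 0.28 and Sox18 by −0.50 ± 0.18. For the 8 of 12 ectodermal genes tested the summed level was 22.6 to 37.2 in positive cells and 9.79 to 12.1 in negative cells. Of these 8, 4 were higher in positive cells and 2 were lower, against 10.6% and 24.4% of all genes tested. The keratin Krt18 led the higher ones at 2.59. The lower ones were Grhl3, at −0.88 (adjusted p = 0.00376, limma), and Sp8, at least 3.09-fold lower (adjusted p = 0.00313, limma). The filter kept Grhl3 and Sp8 through the negative arrays, so their direction is not independent of the filter. Whether these other cells add to the differences of the cilium genes was not tested. In bulk RNA, fewer cells of a type and less RNA per cell cannot be told apart.

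Most cilium genes differed little between the 2 populations. Of the 45, 1 was higher in positive cells (Ttc8) and 5 were lower (Evc2, Tulp3, Ift27, Bbs12 and Ift57), at an adjusted p under 0.05 in limma with Benjamini-Hochberg adjustment over all genes. That is 13.3% of the cilium genes, where 35.0% of all genes tested passed the same threshold. By direction, 10.6% of all genes were called higher and 24.4% lower. At an unadjusted p under 0.05 the count was 7 of 45 cilium genes and 6075 of 13197 genes.

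These counts moved with the arrays and the scaling. Lower calls among the cilium genes numbered 1 without negative replicate 1 or negative replicate 3, 2 without positive replicate 2, and 3 without positive replicate 3 or negative replicate 2. Higher calls numbered 2 without positive replicate 1 and 0 without any other array. Under the 4 other scalings there were 3 to 7 higher and 1 or 2 lower calls, and the share of lower calls over all genes was 53.7% to 55.4%, against 69.7% with the 75th percentile.

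The cilium genes also lay close together. Their median log2 difference, positive minus negative, was 0.03, against −0.18 over all genes tested, and 32 of the 45 lay above that −0.18. Median centring adds the same amount to every gene of an array. After median centring of the arrays over the genes tested, the median was −0.03 over all genes and 0.18 over the cilium genes. The place of the cilium genes against all genes depended on the background filter. Without it, 21237 genes were tested, and the median was 0.03 over the 46 cilium genes and 0.10 over all genes. The arrays came on 3 slides with 1 array per group on each, and within these the cilium median was 0.06, −0.02 and −0.01, against −0.14, −0.20 and −0.21 for all genes. The median size of a difference was 0.18 for the cilium genes and 0.39 for all genes, with median standard errors of 0.13 and 0.16. No cilium gene differed by 1 log2 unit or more, whereas 1598 of the 13197 genes did.

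**Figure D1:**
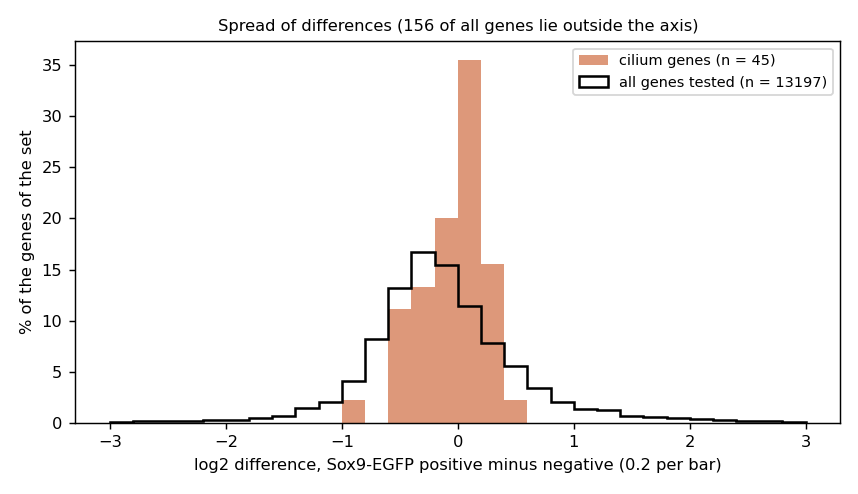
Share of genes (vertical axis, % of the set) in each bar of 0.2 log2 units (horizontal axis, log2 difference, Sox9-EGFP positive minus negative) for the 45 cilium genes (filled) and all 13197 genes tested (outline). The cilium genes lie between −0.96 and 0.47, while the outline runs past both ends of the axis, beyond which 156 genes lie.

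The interval of each difference says how much change the 6 arrays leave room for. The 95% interval lay wholly within 2-fold in either direction for 42 of the 45 genes, and for 37 of the 39 that were not called. It lay within 1.5-fold for 24 genes. These intervals are not adjusted for the number of genes, and 8189 of all 13197 genes had an interval within 2-fold. The smallest p that an exact permutation test of 3 against 3 arrays can give is 0.1, so such a test alone could call no gene.

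The 3 arrays of one group lay wholly above the 3 of the other in 12 of 45 cilium genes, against 51.3% of all genes tested. Besides the 6 called genes these were Bbs1 and Ift88, at 0.32 and 0.12 above, and Ttc21b, Arl13b, Tctn3 and B9d1, which lay between −0.21 and −0.26.

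Each level comes from a 60-base probe. The opening 30 bases of the probes behind the 6 called genes are shown, since every value of those genes rests on hybridisation to these sequences. All letters are in lower case because none is singled out.
Evc2: aggaaggtgcagctctctattcttacaatg
Tulp3: agtgtacctgaacttaagaattcaaaaact
Ift27: ttttcaggagacagaagacgggatcacctg
Bbs12: cccagctgtataagaacagcaagcactttt
Ift57: cttcaagcatattcagtgggtatttttgca
Ttc8: ctgactaagatctagaagccgcagattaga
In the mm9 build, as the files give it, the Evc2 probe lies on the plus strand at chr5:37816219-37816278 and the Ift27 probe on the minus strand at chr15:77989910-77989969. The Bbs12 probe is on the plus strand at chr3:37220248-37220307, the Ift57 probe on the plus strand at chr16:49764123-49764182, and the Ttc8 probe on the plus strand at chr12:100221132-100221191. For Tulp3 the files place 10 bases of the probe, on the minus strand at chr6:128271152-128271161. Each probe is annotated to its gene; whether it lies in a coding exon or a UTR was not analysed here.

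The hedgehog regulators held the largest difference of the set. Evc2 and Evc form the complex that is lost in Ellis-van Creveld syndrome, a condition with extra digits and short limbs. The complex sits near the base of the cilium and passes the signal of activated Smoothened on to the Gli factors. Evc2 gave 3.18, 3.33 and 3.26 on the positive arrays, against 4.19, 4.16 and 4.30 on the negative arrays. All 3 positive arrays lay well below all 3 negative ones. Evc2 was 1.95-fold lower in positive cells, and its log2 difference was −0.96 ± 0.11 (SE, n = 3 each; adjusted p = 0.00176, limma). The difference was −0.98, −0.97 and −0.93 within the 3 slides.

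Evc2 kept its sign and its call under all 18 alternative settings, with differences between −1.0 and −0.64 and adjusted p between 0.000304 and 0.0234 in limma. Its other probe, on the plus strand at chr5:37774357-37774416 of mm9, differed by −0.38 ± 0.14 and was not called (adjusted p = 0.0969 over all probes, limma). The 2 probes thus pointed the same way with sizes that differed.

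Evc gave 1.08, 1.61 and 1.77 on the positive arrays, against 2.11, 1.61 and 1.79 on the negative arrays. The groups overlapped, and the lowest value was that of positive replicate 1. The difference was −0.35 ± 0.22 (SE, n = 3 each) and was not called by limma, at an adjusted p of 0.264. The Evc difference was negative on each slide, and the mean of its 2 probes gave −0.50 with an adjusted p of 0.0258. In the GRCm38.p6 assembly Evc and Evc2 lie head to head on chromosome 5, with start sites 1597 bases apart on opposite strands.

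Kif7, a kinesin-like regulator of Gli proteins at the tip of the cilium, gave −0.72, −0.07 and −0.01 on the positive arrays, against 0.25, −0.07 and 0.30 on the negative arrays. The groups overlapped through negative replicate 2. Its difference of −0.42 ± 0.22 was not called (adjusted p = 0.187, limma), and on each slide it was negative. All 3 hedgehog regulators thus lay below the median of all genes, and 1 was called.

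**Figure D2:**
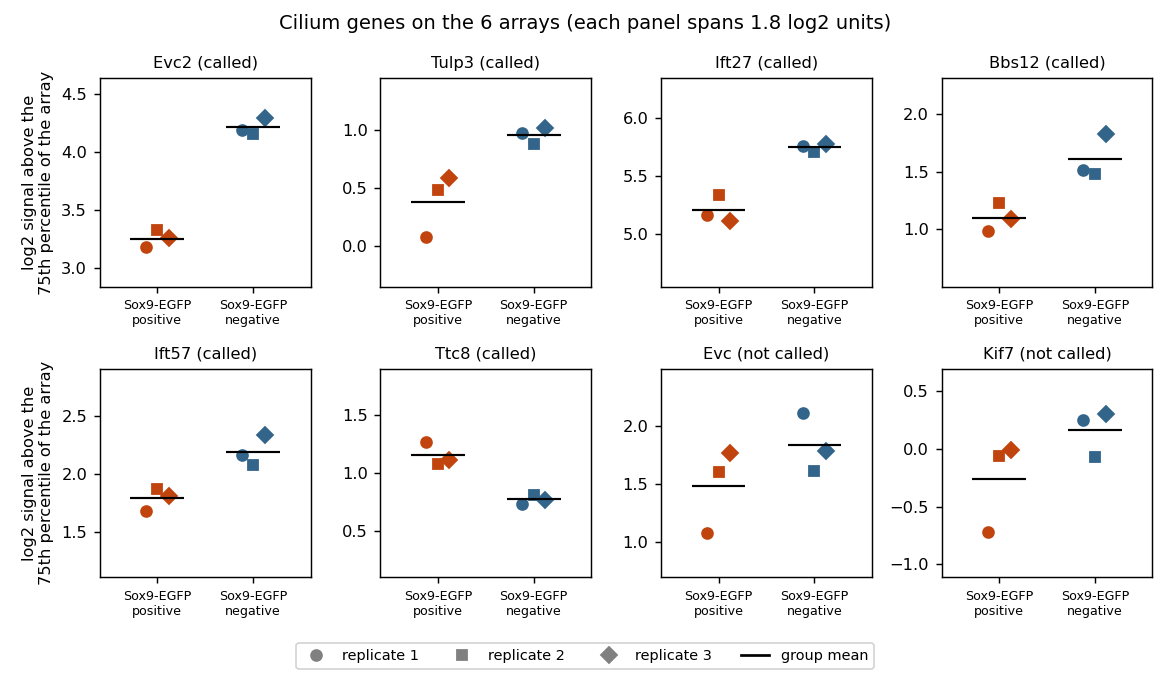
Level on each of the 6 arrays (vertical axis, log2 units above the 75th percentile of the array; every panel spans 1.8 units) for the 6 called genes and for Evc and Kif7, with Sox9-EGFP positive arrays on the left and negative arrays on the right. Symbols mark replicates and lines mark group means; the groups are apart in the 6 called genes and overlap in Evc and Kif7.

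IFT-B is the particle that carries cargo such as tubulin into the cilium. Of its 10 genes tested, 2 were lower in positive cells and none was higher, where 35.0% of all genes tested were called. The median difference of the 10 was 0.01. At an unadjusted p under 0.05 in limma the count was also 2. Ift27, a small GTPase of the particle that in mice is needed for hedgehog signalling and for the exit of the BBSome, gave 5.17, 5.34 and 5.11 on the positive arrays, against 5.76, 5.71 and 5.78 on the negative arrays. The groups were clearly apart. The difference was −0.54 ± 0.11 (SE, n = 3 each; adjusted p = 0.0119, limma). Its call was lost in 7 of 18 alternatives, with values of −0.18, −0.17 and −0.21 after quantile normalization, after normexp with quantile normalization and in the authors' normalized values. The adjusted p was 0.0553 without negative replicate 1 and 0.0507 without negative replicate 3.

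Ift57, a peripheral subunit of the particle, gave 1.69, 1.88 and 1.81 on the positive arrays, against 2.17, 2.08 and 2.34 on the negative arrays. The positive arrays were all lower, by a small margin. The difference was −0.40 ± 0.12 (adjusted p = 0.0417, limma; n = 3 each). The call was lost in 13 of 18 alternatives, among them each of the 6 that leave out an array, where the adjusted p was 0.0527 to 0.133.

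The other IFT-B genes were Ift20, Ift46, Ift52, Ift74, Ift80, Ift81, Ift88 and Ift172, with differences between −0.04 and 0.34. Ift81 and Ift74 form the module that binds tubulin, and differed by 0.34 ± 0.23 and −0.04 ± 0.11. Ift88, whose mutation removes cilia in the mouse, had no overlap between the groups, yet its difference was 0.12 ± 0.10. It passed the threshold as higher under 3 of the 18 alternatives, all of them other normalizations. Ift46 was the brightest of the uncalled genes, with levels of 4.24 ± 0.15 in positive cells and 4.27 ± 0.04 in negative cells (SD, n = 3 each). Its dimmer probe gave 0.62 ± 0.21, against −0.03 ± 0.13 for the brighter one in the same fit over probes, and neither was called.

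IFT-A carries cargo back to the base and helps membrane proteins enter. Of the 5 genes tested in this group, Tulp3 was lower in positive cells, and the 4 others, all subunits of the particle, were not called. The median of the 5 was 0.02, and 35.0% of all genes tested were called. Tulp3, an adaptor that brings G protein-coupled receptors into the cilium together with IFT-A and restrains hedgehog signalling in mice, gave 0.07, 0.49 and 0.58 on the positive arrays, against 0.98, 0.88 and 1.02 on the negative arrays. Positive replicate 1 was the lowest, and all positive arrays lay below the negative ones. The difference was −0.58 ± 0.16 (SE, n = 3 each; adjusted p = 0.0330, limma). Without positive replicate 1 it was −0.43, still called, but the call was lost in 11 of 18 alternatives. Among these were all 4 other scalings, and the settings without positive replicate 2 or without any single negative replicate, at adjusted p of 0.0598 to 0.109.

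Ift122, Ift140, Wdr35 and Ttc21b were not called. Ift122, Ift140 and Wdr35, subunits of IFT-A, differed by 0.06 ± 0.10, 0.27 ± 0.20 and 0.02 ± 0.13. Ttc21b, also an IFT-A subunit, differed by −0.21 ± 0.11 on its brightest probe, and by 0.50 ± 0.19 on a dimmer probe that was not called.

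Of the 5 motor genes of intraflagellar transport, 0 were called by limma, where 35.0% of all genes tested were. At an unadjusted p under 0.05 the count was 0 of 5 motor genes and 6075 of 13197 genes. Kif3a and Kif3b, the motor subunits of kinesin-2, differed by 0.17 ± 0.19 and 0.00 ± 0.16. Dync2h1 and Dync2li1, the heavy and light intermediate chains of dynein-2, differed by 0.03 ± 0.12 and 0.14 ± 0.17. Kif17, a homodimeric kinesin-2 motor, gave −0.35, −1.93 and −1.72 on the positive arrays, against −1.37, −1.38 and −1.33 on the negative arrays. Positive replicate 1 stood above all other arrays and the other positive arrays below them. Its difference was 0.03 ± 0.40 with all arrays and −0.46 without positive replicate 1, where it was called lower (adjusted p = 0.0277, limma).

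**Figure D3:**
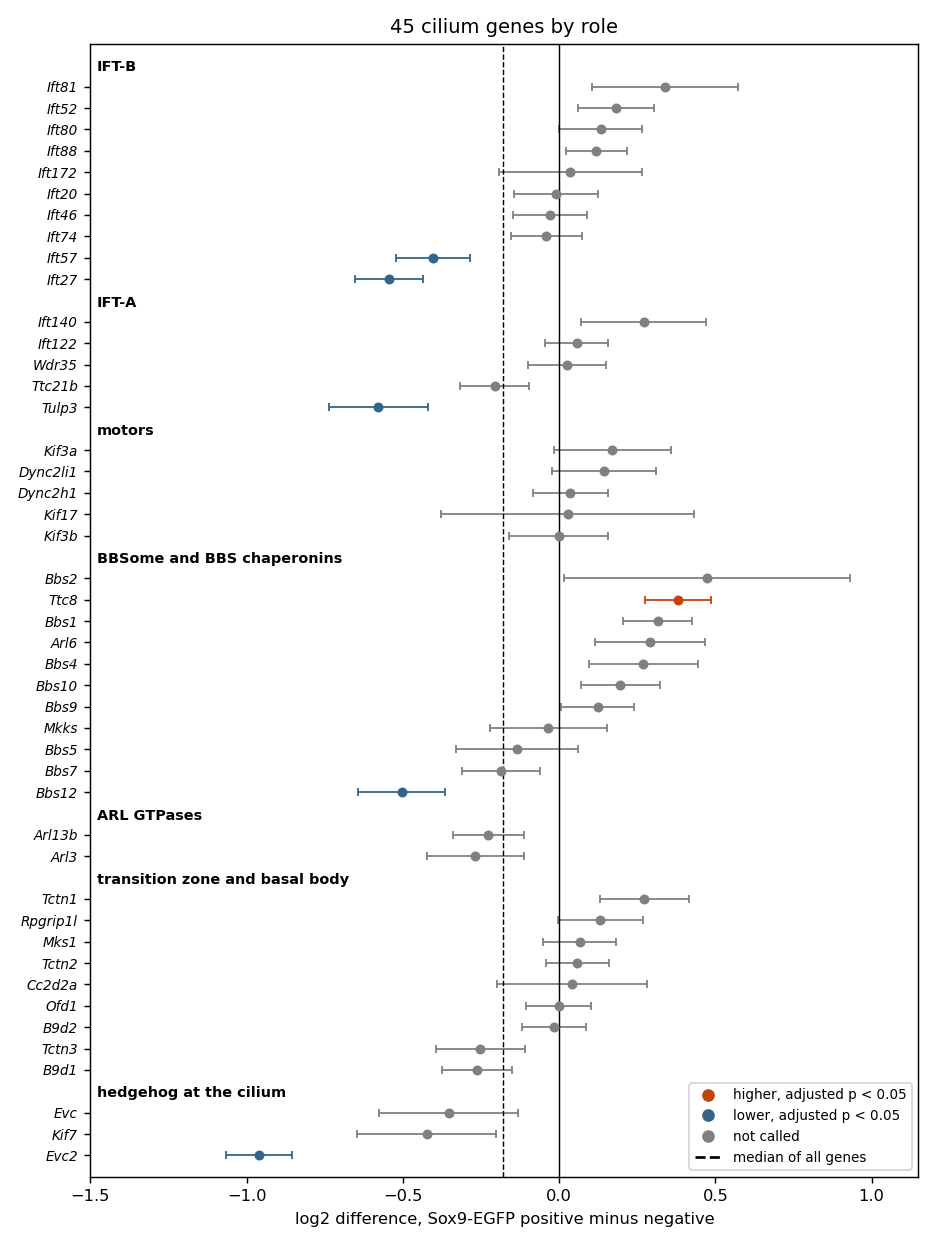
Log2 difference, Sox9-EGFP positive minus negative (horizontal axis), of each of the 45 cilium genes, grouped by role, with bars of 1 SE (n = 3 arrays each). Genes called higher (Ttc8) and lower (Evc2, Tulp3, Ift27, Bbs12, Ift57) are coloured; the dashed line is the median of all genes tested, −0.18.

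The BBSome is a coat that moves membrane proteins out of the cilium, and a group of chaperonin-like proteins assembles it. Of the 11 genes tested here, 1 was higher and 1 lower in positive cells, where 35.0% of all genes tested were called. The median of the 11 was 0.20, the highest of the role groups. Ttc8, the BBSome subunit also known as Bbs8, gave 1.26, 1.08 and 1.11 on the positive arrays, against 0.73, 0.81 and 0.77 on the negative arrays. Each positive array lay above each negative array. The difference was 0.38 ± 0.11 (SE, n = 3 each; adjusted p = 0.0344, limma). It stayed called under all 4 other scalings, at 0.41 to 0.53, and was lost without any 1 of the 6 arrays, at adjusted p of 0.0549 to 0.125.

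Bbs12, one of the chaperonin-like proteins, gave 0.99, 1.23 and 1.09 on the positive arrays, against 1.51, 1.48 and 1.82 on the negative arrays. The positive arrays were again all lower. The difference was −0.50 ± 0.14 (adjusted p = 0.0339, limma; n = 3 each). Its call was lost in 12 of 18 alternatives, among them all 4 other scalings at −0.36 to −0.30. Of the settings that leave out an array, the one without negative replicate 2 kept it, and the adjusted p was 0.0478 to 0.101. The other chaperonin-like genes, Bbs10 and Mkks, differed by 0.20 ± 0.13 and −0.03 ± 0.19.

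Of the other BBSome subunits, Bbs1 came closest to the threshold. It gave 1.29, 1.44 and 1.45 on the positive arrays, against 1.06, 0.99 and 1.18 on the negative arrays. The groups did not overlap. Its difference of 0.32 ± 0.11 had an adjusted p of 0.0695 in limma, and it was called higher in 6 of 18 alternatives, which include all 4 other scalings and the setting without positive replicate 1 (adjusted p = 0.0491). The mean of its 2 probes gave 0.18.

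Bbs2 had the largest difference among the uncalled genes, 0.47 ± 0.46. It gave −1.49, 0.03 and 0.12 on the positive arrays, against −0.81, −1.33 and −0.61 on the negative arrays. Positive replicate 1 was the lowest of all 6 arrays, and the other positive arrays were the highest. Without that array the difference was 0.99, with an adjusted p of 0.0189. Bbs4, Bbs5, Bbs7 and Bbs9 lay between −0.19 and 0.27, and Arl6, the GTPase that recruits the BBSome to membranes, differed by 0.29 ± 0.17. None of these 5 genes was called.

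Arl13b and Arl3, GTPases that control lipid-anchored cargo in the cilium, differed by −0.23 ± 0.11 and −0.27 ± 0.15. Neither was called by limma, where 35.0% of all genes tested were, and 0 of the 2 passed an unadjusted p under 0.05. Arl13b gave 1.07, 1.06 and 0.96 on the positive arrays, against 1.26, 1.13 and 1.39 on the negative arrays. The groups were apart on this probe, while its dimmer probe differed by 0.01.

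The 9 genes of the transition zone and basal body, where the cilium is anchored and gated, held 0 calls by limma and 0 genes at an unadjusted p under 0.05. By the same measures, 35.0% of all genes tested were called, and 6075 of 13197 passed the unadjusted threshold. The median of the 9 genes was 0.04 and their range −0.26 to 0.27. The tectonic genes, which encode proteins of the transition zone, spread over that range: Tctn1 differed by 0.27 ± 0.14, Tctn2 by 0.06 ± 0.10 and Tctn3 by −0.25 ± 0.14. B9d1, Mks1 and B9d2 share the B9 domain and work in the same complex. B9d1 differed by −0.26 ± 0.11 and Mks1 by 0.07 ± 0.12. B9d2 had levels of 4.12 ± 0.09 in positive cells and 4.13 ± 0.01 in negative cells (SD, n = 3 each). Cc2d2a, Rpgrip1l and Ofd1, a protein of the distal centriole, differed by 0.04 ± 0.24, 0.13 ± 0.14 and 0.00 ± 0.10.

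**Figure D4:**
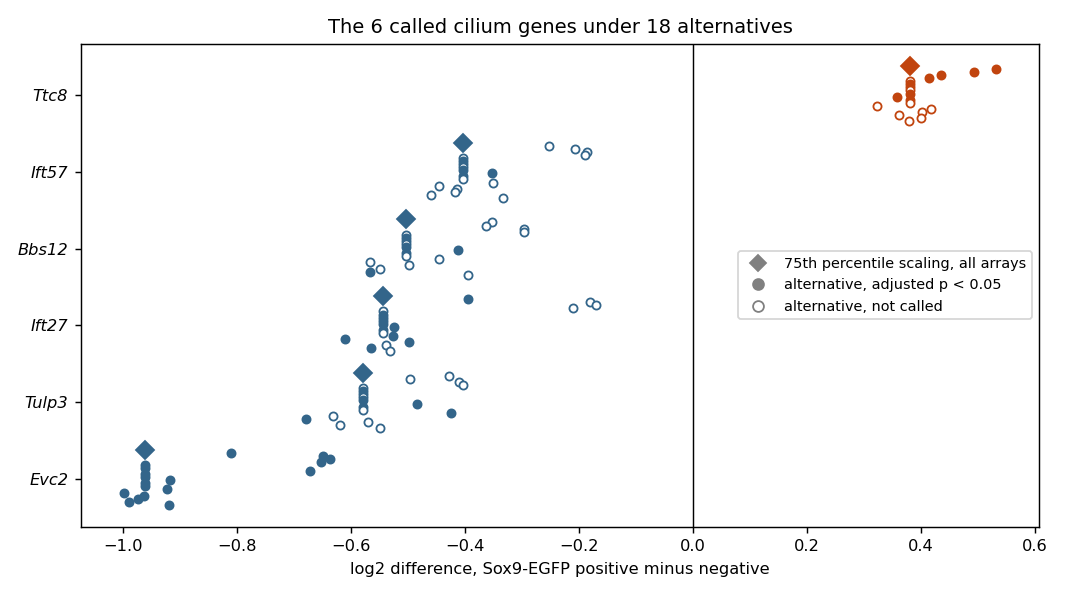
Log2 difference, Sox9-EGFP positive minus negative (horizontal axis), of the 6 called genes with the 75th percentile scaling (diamonds) and under 18 alternatives (filled where called by limma, open where not). Evc2 is filled throughout, between −1.0 and −0.64, while each of the other 5 genes has open points.

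Probes taken singly gave fewer calls. Of the 59 kept probes of these genes, 2 were called, both lower, against 21.6% of 26473 probes. Of 14 genes with several kept probes, 5 had probes of opposite sign.

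A feature that the selection by name did not use is the X-box, the site bound by RFX transcription factors in promoters of cilium genes. RefSeq windows of 300 bases (GRCm38.p6, 250 before to 50 after the start) were found for 42 of the 46 genes. The half-sites GTNNCC and GGNNAC with any 2 bases between them, a motif that reads alike on both strands, occurred in 8 of these 42 (19.0%), against 2.16% of 27025 genes with a window and 2.74% of the genes tested. The matches are shown in capitals, because they are the matches to the motif, each on the strand of its gene with up to 8 flanking bases on either side.
Bbs1: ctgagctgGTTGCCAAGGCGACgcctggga
Bbs4: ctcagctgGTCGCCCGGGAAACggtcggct
Bbs7: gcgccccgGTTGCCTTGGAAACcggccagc
Ift57: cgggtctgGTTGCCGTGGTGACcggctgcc
Mks1: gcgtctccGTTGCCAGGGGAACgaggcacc
Tctn1: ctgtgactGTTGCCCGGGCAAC
Tctn2: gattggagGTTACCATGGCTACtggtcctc
Wdr19: tttgcacgGTCTCCTGGGTGACgagaacgc
The stricter pair GTTNCC and GGNAAC at the same spacing occurred in Bbs7, Mks1 and Tctn1 (7.14%, against 0.529% of all genes). In all, 7 spellings were searched on both strands, and their matches overlap. GTTNCC and NGNAAC around any 2 bases gave 4 genes (9.52%, against 0.936%). GTTGCC and GGCAAC around AT gave none (against 0.0222%), and GTTGCC followed by AT and GG gave Tctn2 alone (2.38%, against 0.633%). The single half-site GTTGCC occurred in 20 genes (47.6%, against 14.1%), and GTTNCC in 33 (78.6%, against 48.8%). The windows held 60.2% G or C, against 60.6% in the genes tested and 53.8% over all windows. Among the genes tested, GTTNCC with GGNAAC occurred in 0.654% and GTTNCC with NGNAAC in 1.13%. GTTGCC with AT and GG occurred there in 0.673%, the half-site GTTGCC in 14.9% and GTTNCC in 51.3%. The Gli spellings GACCACCCA and GNCCACCCA gave no match in the windows of the cilium genes. They matched in 0.289% and 1.76% of all genes, and in 0.260% and 2.10% of the genes tested.

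The stretches shown, each a match with its flanking bases, lie at chr19:4906605-4906634 for Bbs1, chr9:59353464-59353493 for Bbs4 and chr3:36613489-36613518 for Bbs7, all on the minus strand of GRCm38.p6. Ift57 has its stretch at chr16:49699199-49699228 and Mks1 at chr11:87853183-87853212, both on the plus strand. On chromosome 5, Tctn1 has its stretch at chr5:122264411-122264432 on the minus strand, Tctn2 at chr5:124598679-124598708 and Wdr19 at chr5:65199654-65199683, both on the plus strand. The 7 of these genes that were tested ranged between −0.40 and 0.32, with a median of 0.07, and Ift57 was the one called. The 34 tested genes with a window and no match had a median of −0.01.

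The RFX factors themselves gave 0 calls among 5 genes tested with limma, against 35.0% of all genes tested, and 1 at an unadjusted p under 0.05. Rfx1, the brightest, differed by 0.09 ± 0.10, and Rfx7 by −0.36 ± 0.13 (adjusted p = 0.0741). This list gave 1 lower call after quantile normalization, after normexp with quantile normalization, in the authors' values, with array weights and without positive replicate 1. It gave 1 higher call with the mean of probes and without positive replicate 2.

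Beyond the 46 genes, 5 lists of other cilium genes held 59 genes tested, of which 6 were higher in positive cells, 8 lower and 45 not called, with a median of −0.15. The 14 calls are 23.7% of these genes, against 35.0% of all genes. Among dynein-2 and kinesin-2 subunits, Wdr34 and Wdr60, the intermediate chains of dynein-2, were higher by 0.89 ± 0.27 and 0.51 ± 0.11. Wdr34 gave 7.15, 6.49 and 6.59 on the positive arrays, against 5.96, 6.21 and 5.39 on the negative arrays. The groups were apart, with positive replicate 1 the highest. The calls also depended on single arrays. Over all 5 lists, higher calls numbered 1 without negative replicate 1 and 2 without positive replicate 3 or negative replicate 3. Lower calls over the 5 lists numbered 1 without negative replicate 1 or 3, 2 without positive replicate 3 and 5 without positive replicate 2. Neither Wdr34 nor Wdr60 was called higher without negative replicate 1, positive replicate 3 or negative replicate 3. The light chains Tctex1d2 and Dynll2 were lower, at −0.42 ± 0.13 and −0.67 ± 0.15.

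Ttc30a2 and Ttc30b, IFT-B subunits that are close copies of each other and may share signal, were higher by 0.90 ± 0.25 and 0.63 ± 0.17. Ttc30a2 was dim, at −2.62 in positive cells and −3.52 in negative cells. Ttc30a1, brighter than both at 1.25 and 1.03, differed by 0.22 ± 0.13 and was not called. C2cd3, needed to build the distal end of the mother centriole, was higher by 0.51 ± 0.10. Invs, which names the inversin compartment of the cilium, was higher by 0.57 ± 0.12. Kif24, a kinesin that restrains cilium assembly at the mother centriole, was lower, at −1.01 ± 0.21 (adjusted p = 0.0135, limma; n = 3 each). It gave −1.26, −0.57 and −0.67 on the positive arrays, against 0.19, 0.01 and 0.34 on the negative arrays. The groups were apart, and positive replicate 1 was the lowest.

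Rab3ip, the activator of Rab8 known as Rabin8, and Unc119, a carrier of lipid-anchored proteins, were lower, at −0.45 ± 0.12 and −0.58 ± 0.11. The transition zone genes Tmem107, Tmem231 and Tmem17 were lower, at −0.41 ± 0.11, −0.48 ± 0.13 and −0.66 ± 0.17. Each of these 14 calls was lost under some of 18 alternatives, between 2 for Kif24 and 13 for Tctex1d2.

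Other hedgehog pathway genes, outside the 46 selected, were called in both directions. Of 20 tested, 5 were higher in positive cells and 4 lower, against 10.6% higher and 24.4% lower over all genes. The lower count was 1 without negative replicate 1, without the background filter and with the replicate block. It was 2 without positive replicate 2 or 3, with slide as a block, with median centring, with the mean of probes and with the files' own names. Boc, a co-receptor of hedgehog ligands, was higher by 2.02 ± 0.12 and Hhip, a hedgehog-binding inhibitor and target gene, by 2.05 ± 0.12. Ptch1, the receptor and a target gene, was higher by 0.89 ± 0.12 (adjusted p = 0.00378, limma). These 3 calls held under all 18 alternatives. Shh, the ligand of the polarizing region and 1 of the 4 lower genes, was above background on all 3 negative arrays and on no positive array. This gives at least 5.63-fold lower signal in positive cells (adjusted p = 0.00323, limma). The filter kept Shh through the negative arrays, where it was high, so its direction is not independent of the filter.

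Smo, the transducer that accumulates in the cilium, had the brightest probe of the hedgehog list, with levels of 5.63 in positive cells and 6.00 in negative cells. Its difference of −0.37 ± 0.11 was called, but the call was lost in 13 of 18 alternatives and the sign turned in 1 more, where the mean of its probes gave 0.10. Gli1, a target gene and transcription factor, was next in brightness and differed by 0.16 ± 0.10, not called.

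Genes of motile cilia were mostly below the background limit on these arrays. Of 22 such genes on the array, 15 were not well above background on all arrays of either group, among them Foxj1, the regulator of motile cilia, and the axonemal dynein genes Dnah5, Dnah9 and Dnah11. Of the 7 tested, Ccdc39 and Rsph9 were higher, by 1.03 ± 0.16 and 0.53 ± 0.12, and Tekt1 was lower, at −0.72 ± 0.14. Ccdc39 was above background on 2 of 3 positive arrays. The called genes are 42.9% of the 7, near the 35.0% over all genes tested. Mcidas, the brightest of the 7, differed by 1.34 ± 0.51 and was not called (adjusted p = 0.0861, limma).

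Proliferation genes were lower where they were called: 7 of 15 tested were lower in positive cells and none was higher, with 8 at an unadjusted p under 0.05 in limma. Of all genes tested, 24.4% were called lower, and 6075 of 13197 had an unadjusted p under 0.05. Mcm5, Mcm2 and Mcm3, subunits of the replicative helicase, were lower, at −0.82 ± 0.10, −0.78 ± 0.10 and −0.88 ± 0.12. Pcna, the sliding clamp of DNA replication, was lower, at −0.93 ± 0.15, and Mcm6, another helicase subunit, at −0.60 ± 0.12. The summed level of the 15 genes was 511 to 603 in positive cells and 766 to 843 in negative cells, in multiples of the 75th percentile. The count of lower proliferation genes was 4 after quantile normalization, after normexp with quantile normalization and in the authors' values, and also 4 without negative replicate 1. Whether the share of dividing cells bears on the differences of the cilium genes was not tested.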

How the data were processed

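The 6 arrays, 3 of Sox9-EGFP positive and 3 of Sox9-EGFP negative cells, were analysed. Per the file headers, the authors' deposited intensity values come from Feature Extraction 10.7.3.1, with correction for background within the array and none between arrays. The authors also deposited a matrix of log2 values, used as an alternative; each column has the median 6.41, so it is normalized between arrays, and no source used here gives its background correction.

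Intensities of the 59305 non-control spots were taken as log2 values minus the 75th percentile of the array. Spots of a probe were averaged, giving 55681 probes. Probes were named through RefSeq by accession (26300), symbol (2044) or older symbol (355). A probe was kept if well above background on all 3 arrays of a group, which left 26490, less 17 with outlier spots, and the brightest stood for its gene. The comparison used limma 3.58.1 (R 4.3.3) with Benjamini-Hochberg adjustment over 13197 genes, without covariates. A gene measured in 1 group has a bound, from the lowest signal above background. No spot was saturated, and the number of arrays limits the precision. The code was tested on simulated data.

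The cilium genes and all lists were chosen with earlier results of these data known. Every cilium gene is named; the called ones, the 2 largest differences and the 2 brightest of the rest are given in full. Every called gene of the other cilium lists is named, and of further lists up to 4 called genes with the smallest adjusted p and the 2 brightest; any other named gene was chosen after its values were seen. Alternatives were 4 other scalings, 2 background filters, the mean of probes, names as in the files, trend and robust moderation, array weights, slide and replicate blocks, and leaving out each array. Whether replicate numbers pair the samples is not stated in the labels.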

Additional observations from a re-analysis of the deposited data

How the results depend on the processing

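Differences were recomputed under 18 alternatives. Evc2 was called lower in all 18. Over all genes, the 1400 higher calls became 856 with the replicate block and 702 at 2-fold or more, and 895 to 1643 when an array was left out. The 3217 lower calls became 1758 after quantile normalization, 1885 after normexp with quantile normalization, 1910 in the authors' values, 1574 without a background filter, 1301 with the replicate block and 752 at 2-fold or more, and 1590 to 3533 when an array was left out. Of the cilium genes, 1 was called higher. This count was 3 with median centring, quantile normalization or array weights, 7 after normexp, 4 in the authors' values, and 0 without a filter, under the files' names, with the replicate block and at 2-fold, and 0 to 2 when an array was left out. The 5 lower calls became 2 with centring or the files' names, 1 after quantile normalization or normexp, in the authors' values, without a filter or with the replicate block, and 0 at 2-fold, with 1 to 4 when an array was left out. For the other cilium genes, the 6 higher calls became 0 without a filter, with the replicate block and at 2-fold, and 1 to 5 when an array was left out. Their 8 lower calls became 4 with centring, 2 after quantile normalization, 3 after normexp or in the authors' values, 2 without a filter, 5 under the files' names, 15 with array weights, 1 with the replicate block and 1 at 2-fold, with 1 to 9 when an array was left out. The difference of B9d2 turned to 0.31, called, after normexp with quantile normalization. That of Kif17 ranged from −0.46, called, without positive replicate 1 to 0.33 without positive replicate 2. The cause of these shifts was not tested; leaving out an array lowers the number of samples, and the setting without a filter tests 21237 genes. Among all called genes 69.7% were lower, against 54.7% with centring, 55.4% after quantile normalization, 53.7% after normexp and 55.4% in the authors' values.

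The labels do not say whether replicate numbers pair the samples. Deviations from the group means of same-numbered arrays correlated at −0.27, −0.42 and 0.16. These values cannot settle the pairing, because same-numbered arrays lay on different slides and each group has only 3 arrays. Under the replicate block, 1 of the 6 calls among cilium genes, that of Evc2, was kept. Arrays of a slide correlated at 0.46, 0.36 and 0.23, and with slide as a block all 6 calls were kept and 5245 genes were called.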
